A study of Mus musculus with 15 samples.

Results

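The genes described here encode 10 transcription factors of the development and identity of innate lymphoid cells (ILCs): Gata3, Bcl11b, Tcf7, Tox, Tox2, Zbtb16, Id2, Runx3, Batf and Maf. They were taken as a list of known factors, matched by Entrez gene identifier to the mouse symbol, and they are 10 of the 22797 genes in the files. All 10 had enough reads to be tested, among 15339 genes that did. ILCs are lymphocytes of barrier tissues that carry no rearranged antigen receptor; group 2 ILCs (ILC2) make type 2 cytokines such as interleukin 5 and interleukin 13, and group 3 ILCs (ILC3) make interleukin 22 and interleukin 17.

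The study measured polyadenylated RNA by sequencing in ILC2 and ILC3 sorted from the small intestine of female mice at zeitgeber times 4, 10, 16 and 23 (ZT, hours on the light-dark clock of the animals). Cells of 6 mice were pooled at each time before the sort, and the 15 libraries were 2 per cell type and time except ILC2 at ZT16, which had 1. The labels give no strain, age, genotype or treatment, no antibody or gate of the sort, and leave unsaid if replicate libraries were made from different pools of animals. The p-values may therefore reflect technical spread alone. ILC2 libraries were all labelled batch 1 and ILC3 libraries all batch 2, and the effects of batch and of cell type cannot be told apart.

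ILC precursors arise from lymphoid progenitors in which Id2, an inhibitor of the E protein transcription factors, is switched on, together with Tcf7, which encodes the HMG box factor TCF1, Tox and Gata3. Zbtb16 encodes PLZF, a zinc finger factor that marks a precursor of several ILC groups. After that stage GATA3 and BCL11B are known for maintaining ILC2, while TCF1, RUNX3 and lower amounts of GATA3 act in ILC3.

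The sorted populations carried most of the markers of their names. Of each list of 8, 7 passed the cell type test described below in the direction of the name. The exceptions were Hpgds among the ILC2 markers (log2 fold change, ILC3 minus ILC2, -0.30) and Il17a among the ILC3 markers (-0.19). The summed level of 8 ILC2 marker genes was 1125 to 2248 CPM (counts scaled to a common library total) in the ILC2 libraries and 55.77 to 95.25 CPM in the ILC3 libraries, and that of 8 ILC3 marker genes was 24.5 to 80.33 CPM and 748.4 to 2274 CPM. Total counts were 4016298 to 18538315 in ILC2 and 5903163 to 24794403 in ILC3. Other cells' genes were also present: the 9 B and plasma cell markers summed to 18790 to 192300 CPM in ILC2 and 369 to 4332 CPM in ILC3, and the 12 T cell markers to 854.6 to 1790 CPM and 613 to 3244 CPM, with no gene of either list at 0 throughout a cell type. Of the T cell markers 9 passed the cell type test described below. In ILC3 4 were higher (Cd3d, Cd3e, Cd3g and Cd8a, log2 fold changes of 1.81 to 2.22). The 5 that were lower were Cd8b1 (-6.09), Cd5 (-4.06), Cd6 (-3.53), Trbc1 (-0.74) and Trbc2 (-0.71). The median log2 fold change over the 12 was -0.58. The 7 NK cell and ILC1 markers summed to 116.8 to 275.8 CPM in ILC2, where 1 of them was at 0 throughout, and to 227.7 to 3128 CPM in ILC3. Of these 7, 4 passed higher and 1 lower in ILC3. Ncr1, which passed higher, is also among the 8 ILC3 markers above, so this list is not of other cells alone. In bulk RNA of this kind, fewer cells of a type and less RNA per cell cannot be told apart. A pair of ZT23 libraries stood apart, ILC2 replicate 1 with the highest B and plasma cell sum (192300 CPM) and ILC3 replicate 2 with the highest sum of 9 epithelial and stromal markers (3420 CPM, against 278.7 CPM in the lowest ILC3 library) and the highest B and plasma cell sum of ILC3 (4332 CPM). They are called the doubted libraries below, and the main results are also given without them. ILC3 ZT4 replicate 1, which is not among them, also lay at the end of several ranges of ILC3. It had the lowest NK cell and ILC1 sum (227.7 CPM, the next being 1044 CPM) and the lowest T cell sum (613 CPM). Its ILC3 marker sum was the highest (2274 CPM) and its total count the lowest (5903163).

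Start-site sequence from RefSeq (GRCm38.p6, which is mm10) was at hand for 7 of the 10 genes, in 13 windows of 250 bases before a transcription start. The 3 windows shown belong to the gene with the largest difference between the cell types (Gata3), the gene with the largest difference in the opposite direction (Tcf7) and the gene with the smallest p for time (Runx3). Tcf7 and Runx3 have 2 windows each, of which 1 is shown. The Gata3 window and both Tcf7 windows lie inside the gene spans given below, before an inner start. The Runx3 window shown lies directly before the span of that gene, and its other window lies inside it. Each window shown reads 5′ to 3′ on the gene's own strand, with motif matches in capitals. The motifs searched on both strands were GATAA (GATA factors), TGTGGT (RUNX), CAAAG (TCF and LEF), CACGTG (E-box) and AGGTCA (the core of nuclear receptor sites).
Gata3, chr2:9878601-9878850, minus strand: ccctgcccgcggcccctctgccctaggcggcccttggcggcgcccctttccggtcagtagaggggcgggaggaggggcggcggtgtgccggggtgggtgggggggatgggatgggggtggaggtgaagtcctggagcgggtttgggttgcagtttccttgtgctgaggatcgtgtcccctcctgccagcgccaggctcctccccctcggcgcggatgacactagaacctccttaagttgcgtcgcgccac
Tcf7, chr11:52282596-52282845, minus strand: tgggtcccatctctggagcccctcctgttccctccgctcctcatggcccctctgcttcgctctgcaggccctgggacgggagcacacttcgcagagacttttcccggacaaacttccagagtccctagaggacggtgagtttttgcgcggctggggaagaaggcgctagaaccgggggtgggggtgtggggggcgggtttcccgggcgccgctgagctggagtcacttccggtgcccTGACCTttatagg
Runx3, chr4:135120395-135120644, plus strand: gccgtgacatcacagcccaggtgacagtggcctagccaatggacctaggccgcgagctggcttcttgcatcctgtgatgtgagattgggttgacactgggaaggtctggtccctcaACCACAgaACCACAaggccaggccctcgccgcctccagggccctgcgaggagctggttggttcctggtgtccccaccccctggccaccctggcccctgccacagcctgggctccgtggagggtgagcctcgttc
The Gata3 window held none of the 5 motifs, and 70.0% of its bases were G or C. The Tcf7 window held 1 nuclear receptor core, read as TGACCT because it lies on the opposite strand, 13 bases before the start. In the Runx3 window the RUNX motif occurred at 2 places on the opposite strand, read as ACCACA, 134 and 126 bases before the start. The other Tcf7 window held GATAA 63 bases before its start, and the other Runx3 window held none of the motifs. Among 32851 windows of the same length in the table, 14% held the RUNX motif, 14% the nuclear receptor core, 22.6% GATAA, 48.6% CAAAG and 6.02% the E-box. None of the 13 windows of these genes held CACGTG, the E-box that clock factors can bind. A match is a run of letters and not evidence of binding.

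Of the 10 factors, 6 differed between the cell types at an adjusted p under 0.05, averaged over the 4 times (edgeR's quasi-likelihood test with Benjamini-Hochberg adjustment over all 15339 genes). Gata3 and Bcl11b were lower in ILC3, and Tcf7, Zbtb16, Tox2 and Tox were higher. Id2, Maf, Runx3 and Batf did not pass. T cells and NK cells also express Tcf7, Tox and Zbtb16, and the part of such cells in the higher ILC3 levels was not tested. Among all genes tested, 27.1% passed, 15.1% higher and 12% lower in ILC3. The median log2 fold change of the 10 genes (ILC3 minus ILC2) was 0.14, beside 0.11 over all genes.

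**Figure D1:**
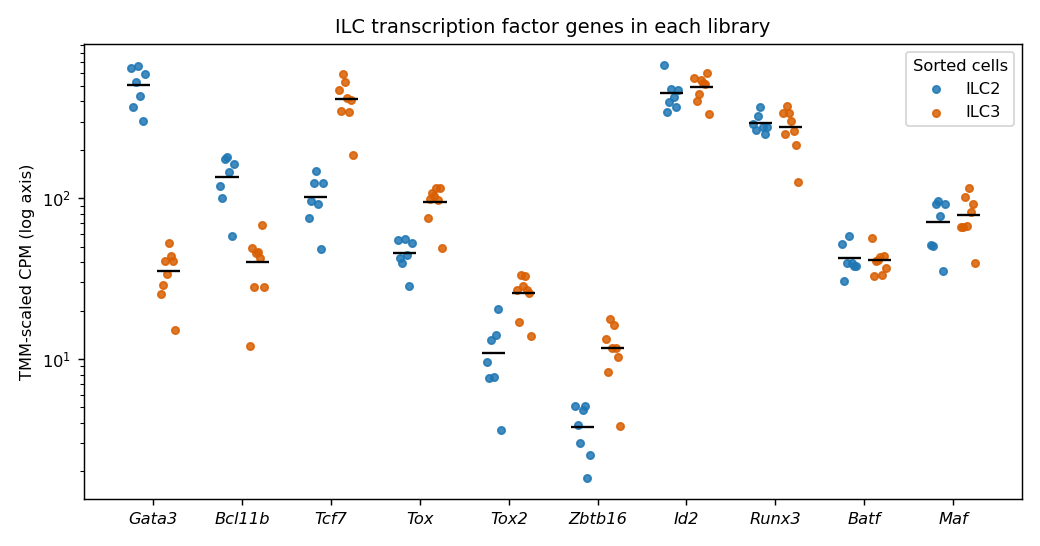
Level of each gene in each library (points; TMM-scaled CPM on a log axis) for ILC2 (blue) and ILC3 (orange), with bars at the mean of each cell type. Gata3 and Tcf7 separate completely in opposite directions, whereas the points of Id2, Runx3, Batf and Maf overlap between the cell types.

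Gata3, a zinc finger factor needed to specify and maintain ILC2, lies at chr2:9857078-9887953 on the minus strand. Its level in ILC2 was 646.4 and 371.7 CPM at ZT4, 527.1 and 665.4 CPM at ZT10, 435.3 CPM at ZT16, and 302.0 and 595.2 CPM at ZT23. In ILC3 it was 25.30 and 29.00 CPM at ZT4, 40.70 and 33.61 CPM at ZT10, 53.01 and 43.87 CPM at ZT16, and 40.59 and 15.09 CPM at ZT23. The lowest ILC2 library was 5.7 times the highest ILC3 library, so the cell types did not overlap. The mean was 506.2 ± 140.3 CPM in ILC2 (SD, n = 7) and 35.15 ± 11.92 CPM in ILC3 (SD, n = 8), a log2 fold change of -3.85 ± 0.25 (SE), or 14.4-fold, with an edgeR adjusted p of 1.03e-06. Its exons overlap those of 9230102O04Rik on the same strand, which averaged 0.4713 CPM, and those of the antisense gene Gm13256, whose reads could not be told from its own because the strand setting of the counting was not given in the sources used here.

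Bcl11b, a zinc finger factor of T cell commitment that also maintains ILC2, lies at chr12:107910403-108004145 on the minus strand. Its level in ILC2 was 119.4 and 100.4 CPM at ZT4, 174.5 and 181.4 CPM at ZT10, 145.7 CPM at ZT16, and 58.54 and 162.4 CPM at ZT23. In ILC3 it was 12.09 and 48.86 CPM at ZT4, 28.17 and 45.30 CPM at ZT10, 46.51 and 42.74 CPM at ZT16, and 68.38 and 28.00 CPM at ZT23. Of the 8 ILC3 libraries, 7 lay below every ILC2 library, and the overlap was between ZT23 replicate 1 of ILC3 and ZT23 replicate 1 of ILC2. Bcl11b was lower in ILC3, with a log2 fold change of -1.75 ± 0.31 (SE), or 3.36-fold (edgeR adjusted p = 0.00131). The 2 ILC3 libraries at ZT4 lay far apart for this gene, 12.09 against 48.86 CPM, and the T cell markers differed between them in the same direction, 613 against 2139 CPM.

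The HMG box factor gene Tcf7 lies at chr11:52246527-52283383 on the minus strand and was the most different of the genes that were higher in ILC3. Its ILC3 libraries held 472.9 and 349.1 CPM at ZT4, 588.4 and 526.7 CPM at ZT10, 422.1 and 341.5 CPM at ZT16, and 405.7 and 184.6 CPM at ZT23. In ILC2 the values were 75.15 and 96.56 CPM at ZT4, 125.2 and 148.6 CPM at ZT10, 91.94 CPM at ZT16, and 48.16 and 124.4 CPM at ZT23. The cell types did not overlap, although the lowest ILC3 library was only 1.24 times the highest ILC2 library. The difference was 2.03 ± 0.25 (SE, log2), or 4.08-fold, with an edgeR adjusted p of 7.69e-05. Gata3 and Tcf7 were the 2 of the 10 genes without overlap between the 7 ILC2 and 8 ILC3 libraries, and 12.1% of all genes tested had none (6.51% higher in ILC3 and 5.57% higher in ILC2).

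Tox and Tox2 encode related HMG box factors; Tox is needed for ILC precursors. Tox (chr4:6686353-6991557, minus strand) ran from 28.49 to 55.77 CPM in ILC2, with a median of 44.05 CPM, and from 48.71 to 116.4 CPM in ILC3, with a median of 101 CPM. Of the 8 ILC3 libraries, 7 exceeded every ILC2 library, the exception being ZT23 replicate 2. The rise in ILC3 was 1.07 ± 0.21 (log2, SE), or 2.1-fold, with an edgeR adjusted p of 0.00265. Tox2 (chr2:163203058-163324172, plus strand) was the less abundant, at 3.591 to 20.52 CPM in ILC2 and 13.85 to 33.34 CPM in ILC3, with medians of 9.521 and 26.84 CPM. It was higher in ILC3 by 1.19 ± 0.34 (log2, SE; edgeR adjusted p = 0.0209), and 6 of 8 ILC3 libraries exceeded every ILC2 library. That call was lost without ILC2 ZT10 replicate 2, when the adjusted p was 0.0561. The antisense gene Gm11802 overlaps exons of Tox, and the limit given for Gata3 holds for it too.

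Zbtb16, the gene of the precursor factor PLZF (chr9:48651797-48836225, minus strand), had the lowest level of the 10 in both cell types. In ILC2 it was 5.101 and 3.898 CPM at ZT4, 2.982 and 4.831 CPM at ZT10, 5.073 CPM at ZT16, and 1.811 and 2.542 CPM at ZT23. In ILC3 it was 13.39 and 8.303 CPM at ZT4, 17.70 and 11.65 CPM at ZT10, 16.32 and 11.66 CPM at ZT16, and 10.25 and 3.805 CPM at ZT23. ILC3 ZT23 replicate 2 fell within the ILC2 range and the other 7 ILC3 libraries lay above it. The rise was 1.57 ± 0.31 (log2, SE), or 2.97-fold, with an edgeR adjusted p of 0.00242. The ILC2 values rested on 12 to 88 reads per library, so counting error is part of their spread.

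The other 4 factors overlapped between ILC2 and ILC3. Id2, which encodes the helix-loop-helix inhibitor of E proteins, had the highest level per length in both, at 341.4 to 677.4 CPM in ILC2 (median 426.8) and 332.4 to 598.0 CPM in ILC3 (median 515.6). Runx3, a runt domain factor of ILC1 and ILC3, ran from 251.8 to 368.4 CPM in ILC2 (median 278) and from 126.2 to 373.1 CPM in ILC3 (median 282). Batf, a leucine zipper factor that pairs with JUN proteins, ran from 30.37 to 58.41 CPM in ILC2 (median 39.59) and from 33.04 to 56.55 CPM in ILC3 (median 40.98). In these 3 genes the ILC2 and ILC3 ranges overlapped, and for Runx3 the 3 ILC3 libraries below every ILC2 library widened the ILC3 range. Maf, which encodes the leucine zipper factor c-MAF, ran from 35.25 to 95.68 CPM in ILC2 (median 77.56) and from 39.29 to 116.2 CPM in ILC3 (median 74.31).

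The log2 differences (ILC3 minus ILC2) of these 4 genes lay close to 0. That of Id2 was 0.13, with a 95% confidence interval of -0.29 to 0.54 and an edgeR adjusted p of 0.672. For Runx3 it was -0.12, with an interval of -0.43 to 0.19 (edgeR adjusted p = 0.585), for Batf -0.03, with -0.40 to 0.35 (edgeR adjusted p = 0.959), and for Maf 0.15, with -0.35 to 0.66 (edgeR adjusted p = 0.681). The signs for Runx3 and Batf turned with scaling by library size alone, to 0.02 and 0.12, and those for Batf and Maf turned when single libraries were left out. A difference of 2-fold, 1 on the log2 scale, lay outside all 4 intervals. Exons of Maf overlap those of the antisense gene Gm15655.

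Per kilobase of gene length the order of the levels differed between the cell types. In ILC2 it was Id2 (354.9 CPM per kb), Gata3 (157.4), Runx3 (75.56), Batf (46.73), Tcf7 (45.32), Maf (19.41), Bcl11b (16.99), Tox (15.93), Tox2 (6.505) and Zbtb16 (0.7329). Of these neighbours, Id2 and Gata3, Runx3 and Batf, and Tox2 and Zbtb16 did not overlap between their libraries, and the others did. In ILC3 the order was Id2 (384.3), Tcf7 (183.8), Runx3 (71.02), Batf (45.42), Tox (33.39), Maf (21.62), Tox2 (15.26), Gata3 (10.93), Bcl11b (5.049) and Zbtb16 (2.275). Every pair of neighbours there overlapped. Gata3 was the second gene of the order in ILC2 and the eighth in ILC3, and Tcf7 was the fifth and the second.

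At single times the test had fewer libraries and called fewer of the factors. Gata3 passed at all 4 times, with log2 fold changes (ILC3 minus ILC2) of -4.22 ± 0.50 at ZT4, -4.00 ± 0.49 at ZT10, -3.17 ± 0.52 at ZT16 and -4.01 ± 0.49 at ZT23 (SE). At ZT23 its value ran from -4.89 without ILC3 ZT23 replicate 1 to -3.44 without ILC2 ZT23 replicate 2, with -3.47 without ILC3 ZT23 replicate 2, and was -3.88 without both doubted libraries. Tcf7 was higher in ILC3 by 2.26 ± 0.45 at ZT4, 2.02 ± 0.44 at ZT10 and 1.77 ± 0.44 at ZT23, and at ZT16 its difference of 2.05 ± 0.58 had an edgeR adjusted p of 0.0869. Bcl11b passed at ZT10 alone (-2.28 ± 0.62, edgeR adjusted p = 0.0488), and under 10 of 21 alternatives there. The number of the 10 factors called was 2 at ZT4, 3 at ZT10, 1 at ZT16 and 2 at ZT23, where 7.21%, 6.31%, 3.29% and 6.84% of all genes were called. At ZT16 the ILC2 group held 1 library, which is assumed to vary like the other groups. Without both doubted ZT23 libraries each cell type had 1 library at ZT23. The log2 fold changes of Gata3 were then -4.24 at ZT4, -4.00 at ZT10 and -3.18 at ZT16. Those of Tcf7 were 2.23, 2.03 and 2.05. Calls at single times were lost when single libraries were left out: that of Gata3 at ZT16 without either ILC3 ZT16 library (edgeR adjusted p up to 0.0848), and that of Tcf7 at ZT4 without replicate 1 of either cell type at ZT4 (up to 0.0805) and at ZT10 without any of the 4 ZT10 libraries (up to 0.146). At ZT23 Tcf7 passed in 8 of 15 fits with 1 library left out, and its difference was 1.23 without ILC2 ZT23 replicate 1 (edgeR adjusted p = 0.172), 2.62 without ILC2 ZT23 replicate 2, 1.09 without ILC3 ZT23 replicate 1 and 2.23 without ILC3 ZT23 replicate 2. It was 1.70 without both doubted libraries (edgeR adjusted p = 0.0389). Runx3 had log2 fold changes of 0.09, 0.04 and 0.03 from ZT4 to ZT16 and -0.63 ± 0.27 at ZT23, which did not pass (edgeR adjusted p = 0.197), and leaving out single libraries turned the sign of the first 3 values.

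No factor passed a test of time in edgeR. Over the 4 times, edgeR's adjusted p was 1 for each of the 10 in ILC2 and at least 0.965 in ILC3, and it was 1 for each in the test of whether the course over time differed between the cell types. Of all 15339 genes 0% passed in each of these tests, while 516 genes in ILC2, 669 in ILC3 and 307 for the difference had an unadjusted p under 0.05. DESeq2 called 24, 24 and 2 genes, none of them among the 10. Runx3 in ILC3 was the only one of the 10 with an unadjusted p under 0.05 for time (p = 0.0155 in edgeR's quasi-likelihood F-test, not an exact test; adjusted p = 0.965).

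**Figure D2:**
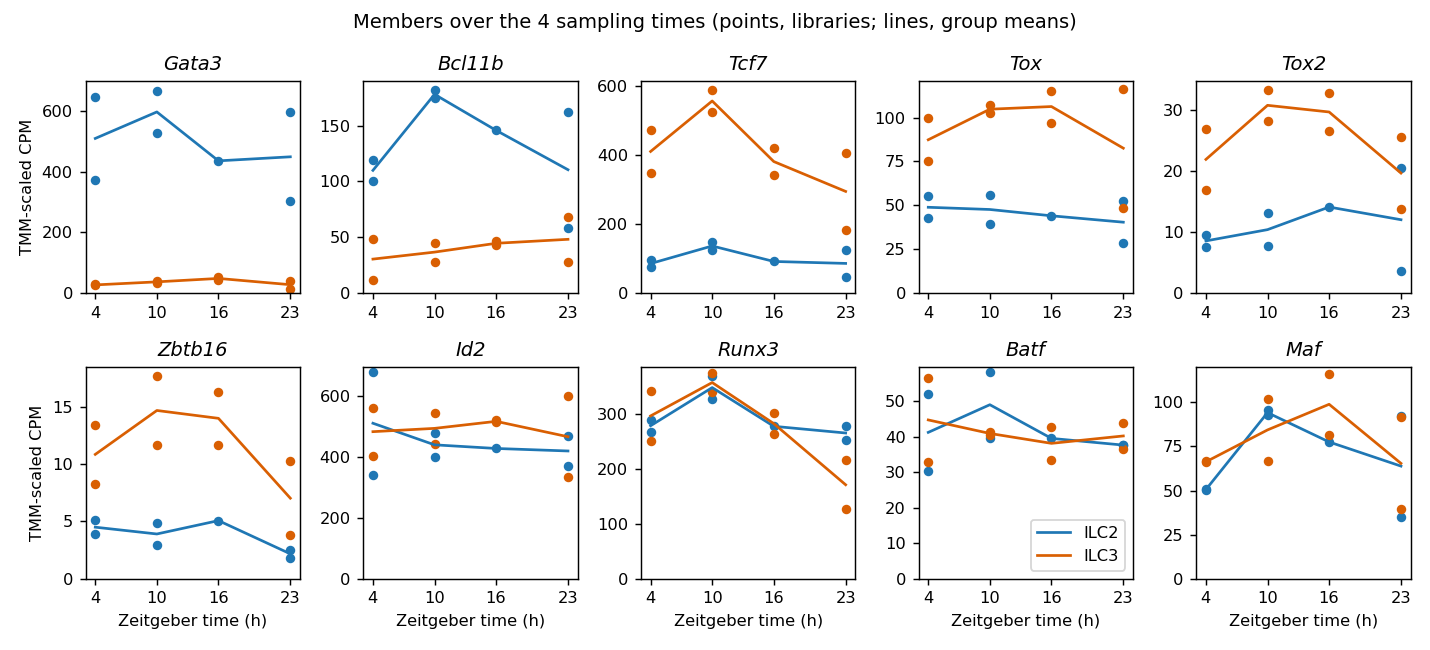
Level of each gene (TMM-scaled CPM, linear axis from 0) against zeitgeber time in hours; points are libraries, lines join group means, ILC2 in blue and ILC3 in orange. The spread between the 2 libraries at ZT23 is wide for most genes, and Runx3 in ILC3 shows its 2 lowest values there.

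Runx3 (chr4:135120645-135177990, plus strand) in ILC3 was 341.0 and 250.9 CPM at ZT4, 373.1 and 340.1 CPM at ZT10, 301.8 and 262.2 CPM at ZT16, and 215.5 and 126.2 CPM at ZT23. Both ZT23 libraries lay below the other 6. In ILC2 its values were 288.9 and 267.3 CPM at ZT4, 326.5 and 368.4 CPM at ZT10, 277.1 CPM at ZT16, and 251.8 and 278.0 CPM at ZT23, where ZT23 replicate 1 was the lowest and replicate 2 lay beside the ZT16 library. From ZT10 to ZT23 the log2 change in ILC3 was -1.06 ± 0.27 (SE; unadjusted p = 0.00215, edgeR's adjusted p = 0.597). DESeq2 gave -1.0 with an adjusted p of 0.0484, and of the 10 factors it called only Runx3 in this comparison. The edgeR value was -0.73 without ILC3 ZT23 replicate 2 and -1.50 without replicate 1. Some lists of other cells' markers were higher at ZT23 than at ZT10 in ILC3. The B and plasma cell sum was 426.8 and 369 CPM at ZT10 and 1566 and 4332 CPM at ZT23. The epithelial and stromal sum was 504 and 354.6 CPM and then 691.9 and 3420 CPM. Over these lists the median log2 change was 2.79 and 1.83. It was 0.19 for the T cell markers, 0.43 for plasmacytoid dendritic cells, 0.015 for mast, eosinophil and myeloid cells, and -0.13 for NK cells and ILC1. The T cell sum was 1324 and 2273 CPM at ZT10 and 3244 and 994.9 CPM at ZT23. The part of other cells in the change of Runx3 was not tested. In the same comparison the log2 change was -0.92 ± 0.43 for Tcf7 and -1.06 ± 0.55 for Zbtb16, neither of which passed (edgeR adjusted p = 0.597 for each). Without ILC3 ZT23 replicate 1 these values were -1.59 and -1.94, and without replicate 2 they were -0.46 and -0.52.

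Within a cell type the same libraries often stood at the ends of the range. ILC2 ZT23 replicate 1 was the lowest of the 7 ILC2 libraries for 7 of the 10 factors (Gata3, Bcl11b, Tox, Tcf7, Maf, Zbtb16 and Runx3), and for Tox2 it was the highest. ILC3 ZT23 replicate 2 was the lowest of the 8 ILC3 libraries for 8 of the 10, all but Bcl11b and Batf. At the other end, ILC2 ZT10 replicate 2 was the highest for 7 factors and ILC3 ZT10 replicate 1 for 4. The 2 ZT23 libraries were those with the highest B and plasma cell sum of their cell type, and the ILC3 library also had the highest epithelial and stromal sum; the part of those cells in the low values was not tested. Without both libraries the cell type differences (log2, ILC3 minus ILC2) were -3.82 for Gata3, -1.77 for Bcl11b and 2.00 for Tcf7. They were 1.65 for Zbtb16, 1.705 for Tox2 and 1.09 for Tox.

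**Figure D3:**
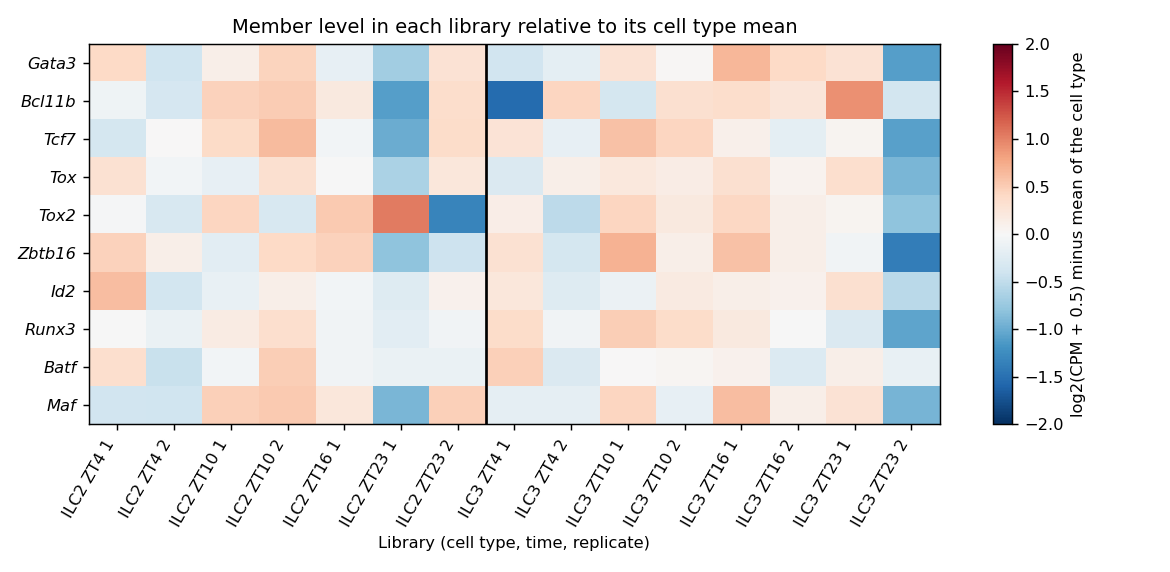
Deviation of each gene (rows) in each library (columns) from the mean of its cell type, as log2(CPM + 0.5); red is above the mean and blue below, and the line separates ILC2 from ILC3. The columns of ILC2 ZT23 replicate 1 and ILC3 ZT23 replicate 2 are blue for most genes.

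Across all libraries of a cell type most pairs of factors were positively related. Over the 45 pairs of genes, the median Pearson r of log2(CPM + 0.5) was 0.515 in ILC2 (7 libraries, range -0.733 to 0.963, 36 pairs above 0) and 0.656 in ILC3 (8 libraries, range -0.56 to 0.956, 41 pairs above 0). The pairs share libraries, times and other cells, so these are descriptions. Without the doubted ZT23 library of each cell type the median was 0.253 in ILC2 (6 libraries, 34 pairs above 0) and 0.194 in ILC3 (7 libraries, 29 pairs above 0). In ILC2 the closest pair was Bcl11b with Maf (0.963), and Tox2 was negatively related to each of the other 9 factors, which without ZT23 replicate 1 no longer held for Zbtb16 (0.524), Runx3 (0.159) and Batf (0.105). In ILC3 the closest pairs were Gata3 with Maf (0.956), Tox2 with Zbtb16 (0.951) and Tcf7 with Runx3 (0.948), which were 0.885, 0.911 and 0.811 without ZT23 replicate 2.

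Each factor was also set against the summed B and plasma cell and T cell markers within each cell type, which gave 40 relations. Pearson's r passed for 5 of them (exact permutation p, two-sided, Benjamini-Hochberg over the 40), and Spearman's rho for none, the smallest adjusted p being 0.0724. Bcl11b rose with the T cell markers across the 8 ILC3 libraries, with r = 0.97 and rho = 0.81 (exact permutation p = 0.00149 and 0.0218, adjusted 0.0312 and 0.124), and r was 0.942 without the 2 libraries farthest from the median. Bcl11b is itself a T cell gene, and the part of T cells in its ILC3 level was not tested. Tcf7 and Runx3 fell as the B and plasma cell markers rose in ILC3. For Tcf7 r was -0.896 and rho -0.833 (exact permutation p = 0.00159 and 0.0154, adjusted 0.0312 and 0.123), and r was -0.873 without the 2 libraries. For Runx3 r was -0.867 and rho -0.881 (exact permutation p = 0.00313 and 0.00724, adjusted 0.0312 and 0.0724), and r was -0.818 without them. In ILC2, Gata3 and Tox rose with the T cell markers. For Gata3 r was 0.872 and rho 0.929 (exact permutation p = 0.00278 and 0.00675, adjusted 0.0312 and 0.0724), and r was 0.795 without the 2 libraries. For Tox r was 0.895 and rho 0.929 (exact permutation p = 0.00556 and 0.00675, adjusted 0.0444 and 0.0724), and r was 0.902 without them. Without the doubted ZT23 library of the cell type, r was 0.986 for Bcl11b, -0.882 for Tcf7, -0.815 for Runx3, 0.751 for Gata3 and 0.797 for Tox. The libraries span 4 times, and all values are shares of 1 library total, which these coefficients do not separate.

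**Figure D4:**
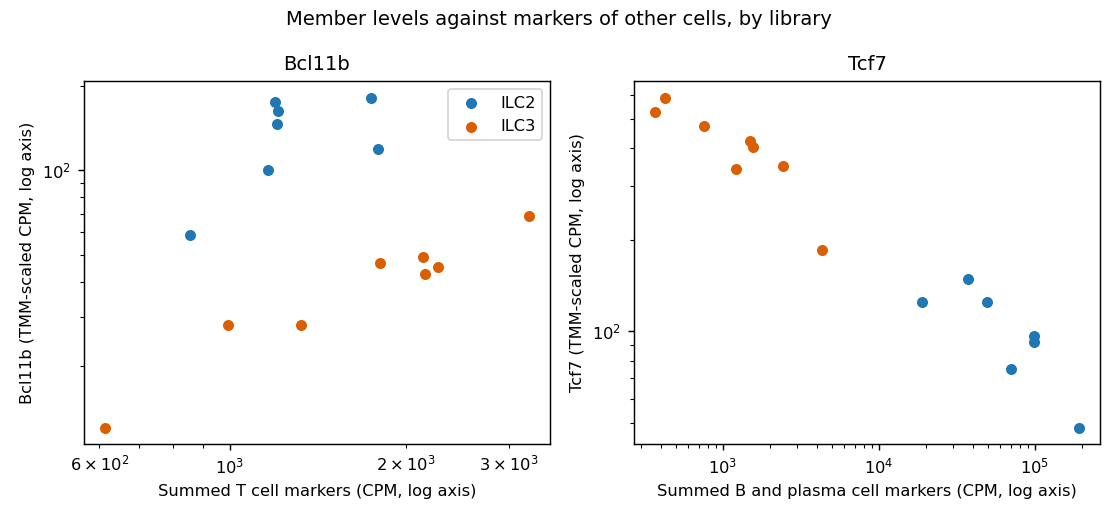
Bcl11b against the summed T cell markers (left) and Tcf7 against the summed B and plasma cell markers (right), both axes in CPM on log scales, 1 point per library, ILC2 in blue and ILC3 in orange. Within ILC3, Bcl11b rises with the T cell sum and Tcf7 falls with the B and plasma cell sum; the cell types also differ in the marker sums.

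Relatives of the 10 factors in the same protein families also differed between the cell types. Of 22 family members, 11 passed between the cell types, 8 higher and 3 lower in ILC3, where 27.1% of all genes passed (15.1% higher and 12% lower), with a median log2 fold change of 0.53 beside 0.11 for all genes. Without both doubted ZT23 libraries 8 passed, 5 higher and 3 lower. Runx2, another runt domain factor, was lower in ILC3 by a log2 fold change of -1.93 ± 0.20 (SE), at 38.69 ± 9.665 CPM in ILC3 (SD, n = 8) against 142.6 ± 32.26 CPM in ILC2 (SD, n = 7), with an edgeR adjusted p of 1.86e-05. The third of that family, Runx1, was 0.40 ± 0.14 higher in ILC3 and did not pass (edgeR adjusted p = 0.0587). Batf3, a relative of Batf best known from dendritic cells, was 41.36 ± 9.012 CPM in ILC3 and 2.4 ± 1.978 CPM in ILC2 (SD, n = 8 and 7), a log2 difference of 4.49 ± 0.54 (edgeR adjusted p = 7.1e-05). The small MAF protein gene Mafk was higher in ILC3 by 0.93 ± 0.12 (edgeR adjusted p = 9.56e-05).

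Gata2, a GATA factor of mast cells and blood progenitors, ran opposite to Gata3. In ILC3 it ranged from 28.13 to 80.61 CPM (median 52.94), and in ILC2 from 0 to 13.53 CPM (median 0.9332), without overlap. The log2 difference was 6.46 ± 0.71 (edgeR adjusted p = 5.44e-05). Of the 10 mast, eosinophil and myeloid markers, 9 were tested, 7 were higher in ILC3 and 1 lower, and the sum of the list was 1620 to 3109 CPM in ILC3 and 302.9 to 1904 CPM in ILC2. The part of mast cells in the level of Gata2 was not tested. Gata1, which passed too, had 99 reads over the ILC3 libraries and 2 over the ILC2 libraries, a depth-scaled ratio of 27.6 (95% counting interval 7.439 to 231), and Id4, which passed under 9 of the 16 alternatives that tested it, had 37 and 0. With ILC2 set at 3 counts over the group the ratio for Id4 was 6.87. The lower 95% counting limit of 5.32 came from the reads as counted, 37 and 0, and is not the limit of that ratio. That limit covers counting error over the summed reads and not the spread between libraries. From edgeR the log2 difference of Id4 was 4.80, with a 95% confidence interval of 1.57 to 8.04.

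Among 18 genes whose products bind these factors or act upstream of them, 8 passed, 1 higher and 7 lower in ILC3, where 27.1% of all genes passed, 15.1% higher and 12% lower. The median log2 fold change was -0.25, beside 0.11 for all genes. Hes1, a target of Notch signalling, was lower in ILC3 by a log2 fold change of -3.33 ± 0.18 (SE), at 42.25 ± 10.57 CPM in ILC3 against 409 ± 105.1 CPM in ILC2 (SD, n = 8 and 7; edgeR adjusted p = 3.2e-07), and the libraries did not overlap. The 3 genes of E proteins, which ID2 binds, were lower in ILC3. Tcf4 was 50.63 ± 12.03 CPM in ILC3 and 141 ± 42.8 CPM in ILC2 (SD, n = 8 and 7), a log2 difference of -1.51 ± 0.21 (edgeR adjusted p = 2.28e-04). Tcf3 was 98.04 ± 7.149 and 154 ± 25.8 CPM (SD, n = 8 and 7), a difference of -0.66 ± 0.13 (edgeR adjusted p = 0.00221), and Tcf12 differed by -0.58 ± 0.15 (edgeR adjusted p = 0.0134, and 0.0842 with scaling by library size alone). Tcf4 also marks plasmacytoid dendritic cells. Their 8 markers, Tcf4 itself among them, summed to 715.3 to 2171 CPM in ILC2 and 221.8 to 357.3 CPM in ILC3. Irf4, whose product binds DNA with BATF and is abundant in plasma cells, was lower in ILC3 (log2 fold change -1.44 ± 0.27, edgeR adjusted p = 0.00194), and the B and plasma cell sum was lower there too. The part of those cells in either gene was not tested. Cbfb, the shared partner of the RUNX factors, was the gene of this list that was higher in ILC3, by 0.48 ± 0.14 (edgeR adjusted p = 0.0219). Cbfb passed under 15 of 21 alternatives and lost its call, with an adjusted p of at most 0.0782, with the replicate block and without ILC2 ZT10 replicate 1, the ILC2 ZT16 library, ILC3 ZT10 replicate 2 or either ILC3 ZT16 library.

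**Figure D5:**
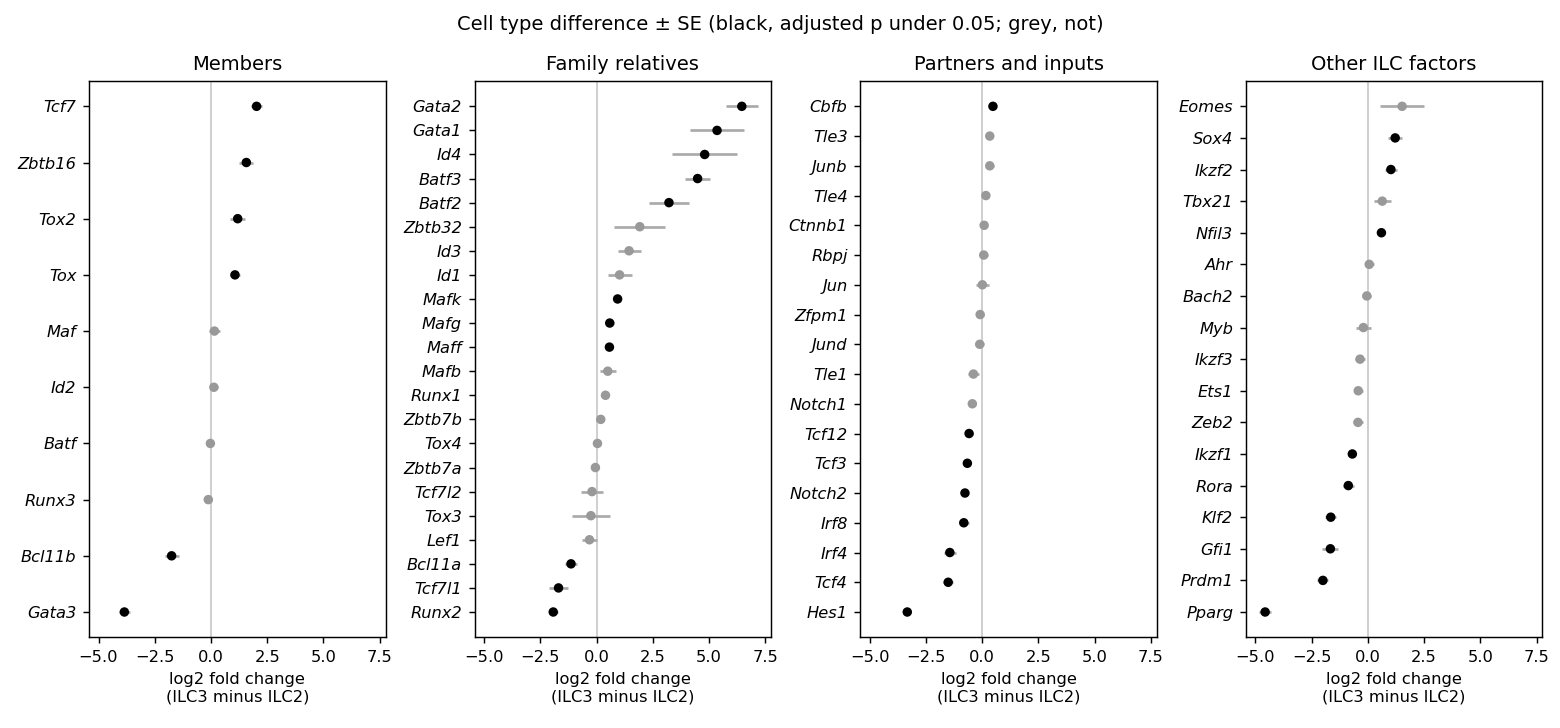
Log2 fold change (ILC3 minus ILC2, mean of the 4 times) with its standard error for the 10 factors and the genes of 3 related lists (1 gene is not shown); black points passed at an adjusted p under 0.05 and grey points did not. The 10 factors span -3.85 (Gata3) to 2.03 (Tcf7), and Gata2 and Pparg stand at the ends of the other lists.

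Of 18 other transcription factors of ILCs, 10 passed, 4 higher and 6 lower in ILC3, beside 27.1% of all genes (15.1% higher and 12% lower). Their median log2 fold change was -0.27, beside 0.11 for all genes. Pparg, a nuclear receptor of lipid handling found in ILC2, was lower in ILC3 (log2 fold change -4.56 ± 0.26, edgeR adjusted p = 3.98e-07). Prdm1, which encodes BLIMP1 and is also a plasma cell factor, was lower in ILC3 (log2 fold change -2.0 ± 0.24, edgeR adjusted p = 7.87e-05), and Klf2, a factor of lymphocyte trafficking, was lower too (-1.65 ± 0.25, edgeR adjusted p = 3.69e-04). None of the genes of the 3 lists passed a test of time in edgeR, in which 0% of all genes did.

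The genes whose pattern over libraries was most like that of each factor were found among 9053 genes of at least 10 CPM, by the smaller of the 2 Pearson r values over the 7 ILC2 and the 8 ILC3 libraries. Gata3 was most like Nt5e (0.931) and Il12rb1 (0.931), and Bcl11b was most like Rgs3 (0.94) and Trdv5 (0.937), the latter a variable segment of the T cell receptor delta chain. For Tcf7 these were Crtc3 (0.953) and Atn1 (0.944), for Runx3 Pde8a (0.942) and Zmiz1 (0.918), and for Tox Il27ra (0.945) and Il12rb1 (0.929). For Maf it was Fip1l1 (0.932). The likeness was lower for Tox2 (Rhobtb1, 0.891), Id2 (Ppp1r7, 0.887), Batf (Ldhb, 0.87) and Zbtb16 (Virma, 0.863). These are the highest of many coefficients over few libraries, with both doubted libraries among them.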

How the data were processed

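The authors deposited raw read counts per gene with gene lengths, 1 file per library, under Entrez identifiers. Reads were counted with featureCounts on mm10, per the submitters' processing notes; the aligner, strand setting and handling of multi-mapping reads are not given in the sources used here. RNA came from pooled, sorted cells and TruSeq libraries, per the labels' protocols. Of 22797 genes, 22718 were named through the RefSeq table of GRCm38.p6.

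Groups follow the labelled cell type and time. Replicates differed by more than sampling noise (chi-square per degree of freedom 22 to 229). edgeR 4.0.16 (R 4.3.3) filterByExpr with a minimum count of 10 kept 15339 genes; counts were scaled by TMM and fitted by quasi-likelihood with 8 group means over 15 libraries (7 residual degrees of freedom), which share 1 spread because ILC2 ZT16 has 1 library. Standard errors and 95% intervals came from the same fit. Benjamini-Hochberg adjustment ran over all genes tested (threshold 0.05). CPM are TMM-scaled, and correlations used log2(CPM + 0.5) with exact permutations in scipy 1.17.1. Counting intervals and floors cover counting error only. In simulated counts of 15339 genes the cell type test called 53% of 2-fold and 89% of 4-fold changes. The test of time in ILC3 called 6% and 70%, where the change was set at ZT16 and ZT23 together. A change at a single time was not simulated. The changed genes were drawn from those with an expected count of at least 10 in the smallest library.

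The 10 factors, the other gene lists, the rule for named genes and the tests were chosen with earlier results of these data known. The rule named all 10 factors, up to 4 genes of each of 3 related lists with the smallest p for cell type, and the 2 genes most like each factor; Runx1, Gata1, Id4, Tcf12 and Cbfb were named after their values were seen, and for Maf, Tox2, Id2, Batf and Zbtb16 the first of the like genes is given. Some genes that the rule chooses are not reported here by name, though the counts and sums of lists hold them. Alternatives were other scaling, no filter, DESeq2 1.42.0, each library left out, a replicate block, 1 cell type alone and a 24-hour cosine; leaving out the 2 ZT23 libraries, in the tests and in the correlations, was chosen after seeing the data.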

Additional observations from a re-analysis of the deposited data

Results flagged for a closer look

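Over the 20 groups of 1 factor in 1 cell type, 2 had a library far from the others by Dixon's gap test at the 95% level, a test that chance passes in about 1 of 20 groups. Id2 had its highest ILC2 value, 677.4 CPM, in ZT4 replicate 1, where the other 6 libraries ran up to 478.5 CPM. Batf had its highest ILC3 value, 56.55 CPM, in ZT4 replicate 1, where the other 7 ran up to 43.95 CPM.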

How the results depend on the processing

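For cell type, 6 of the 10 factors passed under every other scaling, filter, tool and the replicate block, and 5 to 6 with 1 library left out. Gata3, Bcl11b, Tcf7, Tox and Zbtb16 passed under each of these settings. Genes called numbered 4157, and 3270 to 4214 with 1 library left out; by library size alone 69.4% of them were higher in ILC3, against 55.8%, and the median of all genes moved from 0.11 to 0.26. Differences near 0 changed sign: Maf to -0.031 without ILC3 ZT23 replicate 1 (0.368 without ILC2 ZT23 replicate 2); Batf to 0.117 by library size and to 0.065, 0.023, 0.059 and 0.004 without ILC2 ZT4 replicate 1, ILC2 ZT10 replicate 2, ILC3 ZT4 replicate 2 and ILC3 ZT23 replicate 2 (lowest -0.135 without ILC3 ZT4 replicate 1); Runx3 to 0.024 by library size. With 1 library left out Runx3 ran from -0.148 to 0.295 at ZT4 (without ILC3 ZT4 replicate 1 or 2), from -0.091 to 0.121 at ZT10 (without ILC3 ZT10 replicate 1 or ILC2 ZT10 replicate 2, and -0.047 without ILC2 ZT10 replicate 1) and down to -0.104 at ZT16 (without ILC3 ZT16 replicate 1), and Tox2 at ZT23 from -0.057 to 2.442 (without ILC2 ZT23 replicate 2 or 1). The causes were not tested.

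At single times the factors called with 1 library left out numbered 1 to 3 at ZT4, 1 to 4 at ZT10, 0 to 2 at ZT16 and 1 to 3 at ZT23, and the genes called 455 to 1277, 345 to 1101, 110 to 627 and 528 to 1231, against 1106, 968, 504 and 1049. In the same order of times, DESeq2 called 2025, 1598, 1209 and 1969 genes, with 3, 5, 2 and 3 of the factors among them. Without a filter 1392, 1188, 755 and 1366 genes passed, with 3, 3, 2 and 2 of the factors. Without both doubted ZT23 libraries 4, 6 and 3 factors passed at ZT4, ZT10 and ZT16, and 286 genes at ZT23. More of all genes were called at ZT4, ZT10 and ZT16 in that fit too, so the rise was not particular to the factors. The count at ZT23 rests on 1 library per cell type.

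For time, DESeq2 called 24 genes in ILC2, 24 in ILC3 and 2 for the interaction, and 4, 5, 3 and 24 in the pairs of times (ZT4 to ZT16 and ZT10 to ZT23, first ILC2, then ILC3), with 1 factor, Runx3, in the last. Without the filter 2 and 1 genes passed from ZT10 to ZT23 in ILC2 and ILC3, without both doubted libraries 1 gene passed in ILC2, 1 for the interaction and 1 from ZT4 to ZT16 in ILC2, and 0 to 3 genes passed in ILC3 with 1 library left out.

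Deviations of same-numbered replicates had r from -0.145 to 0.489 over 21 pairs of groups. Not every pair was above 0.1, so the numbers were not taken to pair the samples. Between ILC2 and ILC3 of the same time r was 0.489 at ZT4, 0.216 at ZT10 and -0.042 at ZT23. Pools of mice shared by the cell types within a time were not tested. With a replicate block 3525 genes and 6 factors passed for cell type, without ILC2 ZT16, which has no number and whose own contrasts could not be fitted with the block; contrasts at ILC2 ZT16 could not be had without its library. Depth limits the ILC2 values of Zbtb16, which rest on 12 to 88 reads.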
